A study of Mus musculus with 20 samples.

Results

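The choroid plexus is the fringe of tissue that hangs in the brain ventricles and secretes most of the cerebrospinal fluid. Its epithelium is a single layer of ciliated cuboidal cells, which moves water and ions from blood to ventricle, and which makes the thyroid hormone carrier transthyretin (Ttr) in very large amounts. The plexus of the lateral ventricle is attached along the edge of the hippocampus, so that a dissected hippocampus may carry some or none of it, whereas hippocampal neurons and glia make little Ttr.

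Adult mouse hippocampi were divided by their own Ttr level. Ttr was expressed as its read count divided by the total count of the library, as CPM (counts per 1000000 counts of the library). The members were chosen by this value alone. A library was called choroid-plexus-rich at 1000 CPM or above and choroid-plexus-poor below 100 CPM, and the libraries between these limits were left out. There were 7 rich libraries, 8 poor libraries and 5 libraries left out, of 20 in all. The classes were thus set by a measured value and not by a treatment, and what follows describes which other genes moved with Ttr across libraries. Ttr itself, on chromosome 18 (20665250 to 20674324, mm10), was given no test and no place in any count.

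All 20 animals were C57BL/6 offspring (C57BL/6J in the methods of the study), aged 17.71 to 19.14 weeks, whose dams had been housed during pregnancy either in filtered air (Ct) or with nano-sized particulate matter from traffic (nPM) for 5 h/day on 3 days/week, from gestational day 2 until birth. The 4 groups were control females (Ct_F), control males (Ct_M), nPM females (nPM_F) and nPM males (nPM_M), with 5 animals each. Total RNA without ribosomal RNA was sequenced from the hippocampus of the right hemisphere, after the brains had been perfused with saline. The labels do not tie animals to litters, so that p-values measure the spread between these samples.

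The rich class held 3 Ct_M, 2 nPM_F and 2 nPM_M libraries and no Ct_F library. The poor class held 2 Ct_F, 2 Ct_M, 3 nPM_F and 1 nPM_M library. With the group as covariate, the 2 poor Ct_F libraries therefore added nothing to the difference between the classes. By sex label, 5 of 10 males and 2 of 10 females were rich. By exposure label, 4 of 10 nPM and 3 of 10 control libraries were rich.

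Ttr spanned from 10.3 CPM in Ct_M 3 to 7661 CPM in nPM_F 1. The poor libraries ran from 10.3 through a median of 34.0 to 58.9 CPM, and the rich libraries from 1676 through 4481 to 7661 CPM. The values nearest to the lower limit were 58.9 CPM in nPM_F 2, just inside the poor class, and 124 CPM in nPM_M 4, just outside it. Nearest to the upper limit were 742 CPM in nPM_M 5, left out, and 1676 CPM in nPM_F 5, counted as rich. The 5 libraries left out lay spread between the limits, from 124 to 742 CPM.

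**Figure D1:**
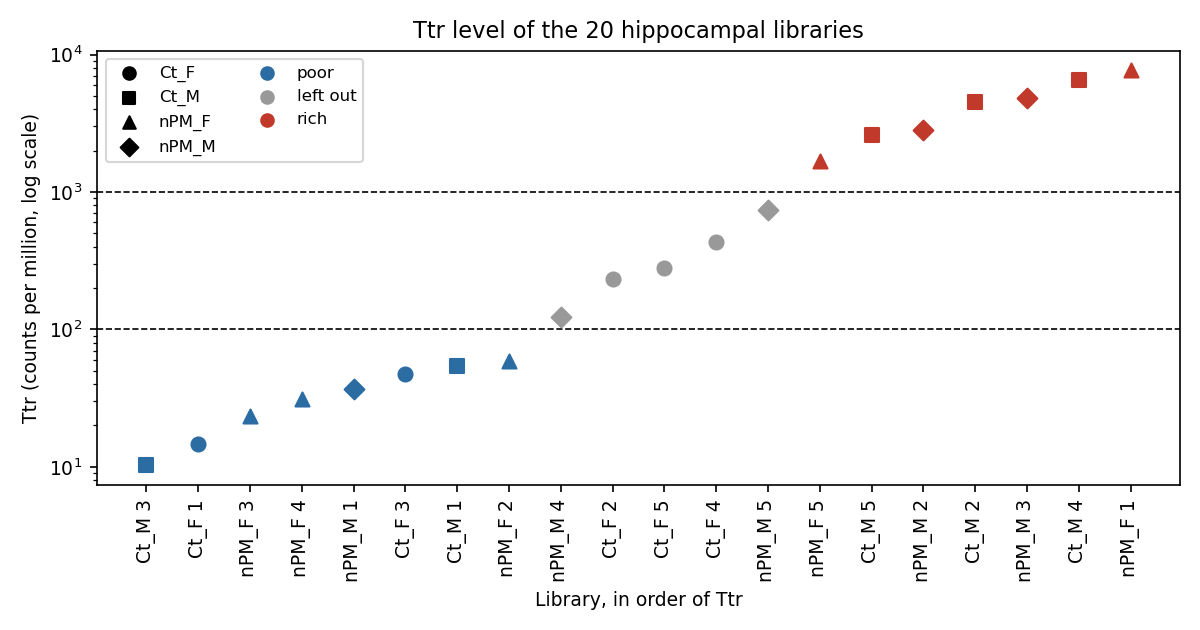
Ttr in CPM (log axis) in each of the 20 libraries, in order of Ttr. Marker shape gives the group, colour gives the class and the dashed lines are the limits at 100 and 1000 CPM. The 7 rich libraries lie between 1676 and 7661 CPM, and the 8 poor libraries between 10.3 and 58.9 CPM.

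Further epithelial markers followed the same order. Folr1, the folate receptor that carries folate into the cerebrospinal fluid, ran from 0.284 through a median of 0.644 to 1.38 CPM in the poor libraries and from 11.4 through 34.96 to 64.7 CPM in the rich libraries. Clic6, of the chloride intracellular channel family, ran from 2.03 through 4.12 to 11.3 CPM in the poor and from 45.5 through 119 to 201 CPM in the rich libraries. The ranges did not overlap for either gene. The libraries labelled hippocampus thus differed in how much choroid plexus RNA they carried, and the names rich and poor hold for these markers as well. In bulk tissue, fewer cells of a type and less RNA per cell cannot be told apart.

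Total count, mitochondrial ribosomal RNA and age were compared between the classes, and none of the 3 passed. The total count averaged 32597357 ± 4264650 (SD, n = 7) in the rich and 27945315 ± 5697400 (SD, n = 8) in the poor libraries (two-sided exact permutation test, p = 0.107, adjusted over 3 properties p = 0.197). Without nPM_M 1, the deepest poor library, this p was 0.0297 in the same exact test. Mitochondrial ribosomal RNA took 11.2% ± 0.660 (SD, n = 7) of the rich and 11.6% ± 1.22 (SD, n = 8) of the poor libraries (exact permutation p = 0.486). Age averaged 18.8 ± 0.449 weeks in the rich and 18.4 ± 0.545 weeks in the poor class (exact permutation p = 0.131). Every female, at up to 18.29 weeks, was younger than every male, at 18.57 weeks or more. Males made up 5 of the 7 rich and 3 of the 8 poor libraries, so that age and sex cannot be told apart here. Over all 20 libraries the total count ran from 19092067 to 38663408, and 3 counts in a library were equal to 0.0776 to 0.157 CPM.

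Across all genes, limma-voom with the group labels as covariate placed 649 genes higher in the rich than in the poor libraries and 109 genes lower, of 19796 genes tested beside Ttr. These are 3.28% and 0.551% of the genes tested, or 3.83% in both directions, at an adjusted p under 0.05. At an unadjusted p under 0.005, the level used in the study, 5.79% passed in both directions. At an unadjusted p under 0.05 in limma, 3501 of the 19797 genes with Ttr passed, the background for such counts in the lists below. For 302 of the 649 higher genes and 8 of the 109 lower genes, the CPM ranges of the classes did not overlap, against 1.67% and 0.0758% of all genes tested. The median log2 fold change was 1.10 among the higher genes, up to 6.54, and -0.33 among the lower genes, and 107 of the 109 lower genes differed by at most 1 on the log2 scale. Over all genes tested the median was -0.01. Of the 649 higher genes, 49 had fewer than 10 counts in every poor library and so entered the test through the libraries where they are high, as did 1 of the lower genes through the poor libraries. Such genes are described by their counts, and their number supports nothing.

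The number of genes rested on the depth term and on single libraries. With the log2 total count as a further covariate, 211 genes were higher and 17 lower. Without nPM_F 1, the library with the most Ttr, 376 were higher and 24 lower, and without Ct_M 3, with the least Ttr, 383 were higher and 80 lower. Within the male libraries alone 4 were higher (Enpp2, F5, Kl and Acaa2) and 1 lower. Enpp2 was the 1 gene called within the controls and within the nPM libraries. Within the females 0 genes were called, where 1536 had an unadjusted p under 0.05 in limma. Since Ct_F held no rich library, the female difference rested on 2 rich and 3 poor nPM_F libraries. The control difference rested on 3 rich and 2 poor Ct_M libraries.

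The proteins that choroid plexus epithelium secretes are those for which Ttr stands as a marker. Their list shares its tissue source with Ttr, and its values, like those of the next 4 lists, are given as a description. All 6 tested members of the list other than Ttr (Enpp2, F5, Sostdc1, Igfbp2, Igf2 and Wfikkn2) were past the threshold and higher in the rich libraries, with a median log2 fold change of 3.48, and none overlapped between the classes. Enpp2 (autotaxin, the enzyme that makes lysophosphatidic acid; chromosome 15, 54838898 to 54920146) ran from 197 through a median of 218 to 284 CPM in the poor and from 1694 through 2708 to 5440 CPM in the rich libraries. The level of Enpp2 in the poor libraries was thus nearly even, while Ttr varied between them, and the fitted log2 fold change was 3.59 ± 0.26 (SE). F5, coagulation factor V, ran from 0.922 to 2.85 CPM in the poor and from 52.4 to 205 CPM in the rich libraries, with a log2 fold change of 5.59. Per kilobase of gene model, the mean of the rich libraries was 3590 CPM for Ttr, 882 CPM for Enpp2 and 15.1 CPM for Folr1.

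Igf2, an insulin-like growth factor, and Igfbp2, which binds it, had log2 fold changes of 3.00 and 2.52. Igf2 is also made by the meninges, and its poor libraries were uneven, with 29.9 CPM in Ct_M 1 and 27.8 CPM in Ct_F 1 beside 4.97 CPM in Ct_M 3. Sostdc1, a secreted inhibitor of BMP and Wnt signals, had 3.66. Wfikkn2, which binds GDF8 and GDF11, had 3.36.

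The channels, transporters and enzymes of fluid secretion had the highest median of the 5 lists. All 11 were past the threshold with no overlap of the classes, and the median log2 fold change of the list was 4.56. Slc28a3 and Steap1 averaged 0.076 and 0.134 CPM in the poor libraries, where 3 counts in a library equal 0.0776 to 0.157 CPM. These 2 genes were near the floor there, and their place in the count of 11 supports nothing. Aqp1, the apical water channel, was at 0.210 to 0.864 CPM in the poor and at 11.4 to 51.9 CPM in the rich libraries. The potassium channel subunit Kcne2 was at 0.101 to 0.714 CPM in the poor and at 12.97 to 51.2 CPM in the rich libraries. Slc4a5, a sodium bicarbonate cotransporter, gave the largest log2 fold change of the 19796 genes tested beside Ttr, 6.54 ± 1.04 (SE). Kcnj13 (a potassium channel), Steap1 (a metalloreductase), Slc28a3 (a nucleoside transporter), Abca4 (a lipid flippase) and Trpv4 (a cation channel) lay between 3.90 and 5.78. Slc4a2, the anion exchanger, and Car12, a carbonic anhydrase, are expressed by other brain cells too, and were at 20.04 and 13.9 CPM on average in the poor libraries. Their log2 fold changes were 2.01 and 2.11. Outside the list, Slc12a2, the sodium-potassium-chloride cotransporter NKCC1, was at 132 to 189 CPM in the poor and at 227 to 394 CPM in the rich libraries (log2 fold change 0.97 ± 0.13 SE, adjusted p = 0.00346).

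Among the receptors, 4 of 5 were past the threshold. Prlr, the prolactin receptor, was at 3.77 to 17.9 CPM in the poor and at 67.4 to 273 CPM in the rich libraries (log2 fold change 4.01). Htr2c, the serotonin 2C receptor, is also made by neurons, and ran from 19.3 through a median of 29.6 to 58.8 CPM in the poor and from 63.6 through 116 to 176 CPM in the rich libraries. Its highest poor value, in Ct_M 1, was close to its lowest rich value, in nPM_M 2, and the log2 fold change was 1.73. Lepr, the leptin receptor, had 2.59. Lrp2, or megalin, an endocytic receptor, was at 3.69 CPM on average in the poor and 5.63 CPM in the rich libraries, with a log2 fold change of 0.56 ± 0.20 (SE) that did not pass.

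All 13 tested genes of junctions, cytoskeleton and other epithelial functions were past the threshold, with a median log2 fold change of 3.20, and 12 did not overlap between the classes. Kl, or klotho, the coreceptor of FGF23, was at 16.2 to 25.7 CPM in the poor and at 101 to 396 CPM in the rich libraries (log2 fold change 3.26). Ace, the angiotensin-converting enzyme, had 3.20, and the tight-junction protein gene Cldn2 had 5.85. Tmem72, a membrane protein gene, had 6.53. Cldn1, another tight-junction gene, was the single overlap, since Ct_M 1 (poor) was at 8.14 CPM and nPM_F 5 (rich) at 7.81 CPM. The keratin genes Krt8 and Krt18 had 3.40 and 3.95. The remaining members 1500015O10Rik, Sulf1, Cab39l, Rdh5, Calml4 and Spint2 lay between 1.54 and 4.95.

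**Figure D2:**
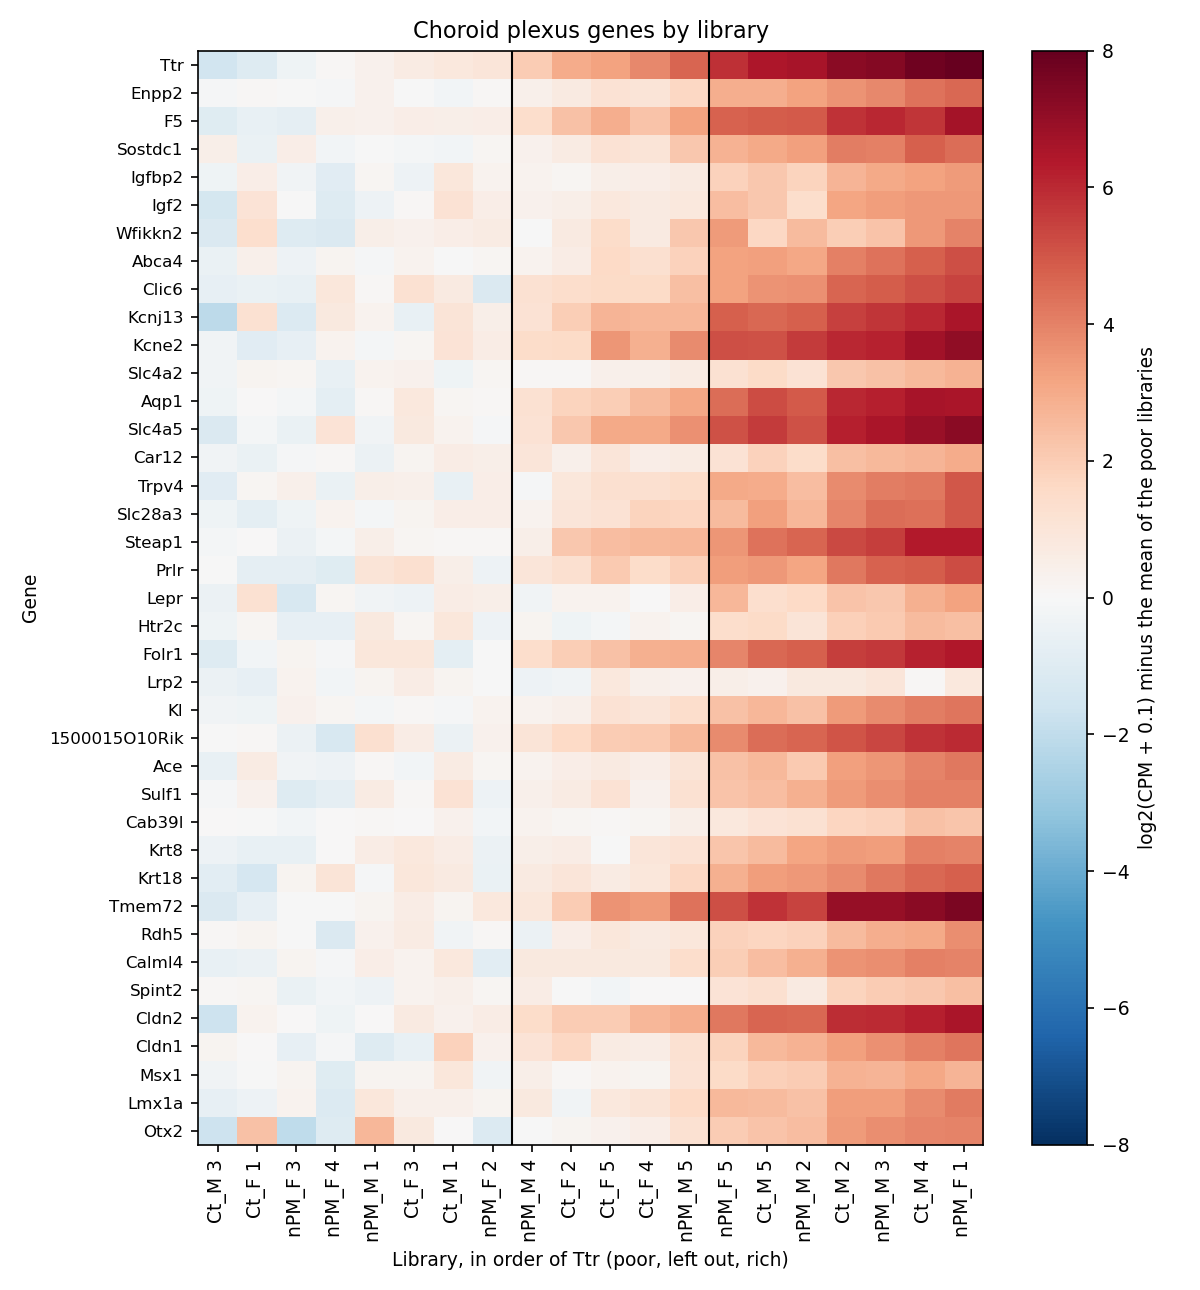
Ttr and the 38 other choroid plexus genes tested (rows) in the 20 libraries in order of Ttr (columns), as log2(CPM + 0.1) minus the mean of the poor libraries. Black lines part the poor, left-out and rich libraries. Nearly every row turns red to the right of the second line, whereas Lrp2 stays pale, and Otx2 is raised in the poor libraries Ct_F 1 and nPM_M 1.

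Of 3 transcription factors of the choroid plexus lineage, Lmx1a and Msx1 were past the threshold, with log2 fold changes of 3.32 and 2.32. Otx2, which maintains the adult epithelium, was at 9.27 to 36.6 CPM in the rich libraries and at 0.453 to 3.94 CPM in 6 of the 8 poor libraries, but at 11.4 CPM in Ct_F 1 and 14.4 CPM in nPM_M 1. Its log2 fold change of 2.94 ± 0.78 (SE) did not pass. The same pair of poor libraries held Pou4f1, a transcription factor of the medial habenula, at 2.16 and 6.02 CPM, against 0 to 0.314 CPM in the other poor and rich libraries, and Chrna3, a nicotinic receptor subunit of the habenula, at 4.14 and 5.78 CPM, against 0.236 to 0.672 CPM. These 2 genes were looked up after their values were seen. The summed habenula list did not set the pair apart, with 58.7 CPM in Ct_F 1 and 44.8 CPM in nPM_M 1 against a median of 54.1 CPM in the poor libraries and 69.5 CPM in Ct_M 1. The summed thalamic markers were at 182 and 265 CPM in the pair, with 241 CPM in Ct_F 3 between them. The part of neighbouring tissue in the Otx2 values was not tested.

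The ratio of the choroid plexus genes to Ttr was described over the rich libraries. For each of the 36 choroid plexus genes past the threshold, which leaves out Lrp2 and Otx2, the mean of the poor libraries was taken off, and the excess was divided by the excess of Ttr. Over the 7 rich libraries the coefficient of variation of this ratio had a median of 17.7% and was under 30% for 33 of 36 genes, while Ttr itself differed several-fold between these libraries. Folr1 gave 7.54 ± 0.685 CPM (SD, n = 7) per 1000 CPM of Ttr. Enpp2 gave 667 ± 112 CPM and Clic6 24.1 ± 2.80 CPM, each per 1000 CPM of Ttr (SD, n = 7). The steadiest ratio was that of 1500015O10Rik (augurin, a secreted peptide precursor), with a coefficient of variation of 5.75%. The least steady were those of Wfikkn2, Lepr and Igf2, with 95.6%, 78.4% and 41.6%.

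A pair of libraries stood apart in these ratios. In nPM_F 5, the rich library with the least Ttr, Wfikkn2 reached 5.21 CPM per 1000 CPM of Ttr, against 0.562 to 1.78 in the other 6, and Lepr reached 13.1 against 2.39 to 4.48. In nPM_M 2 the median gene was at 0.778 of its own mean ratio, the lowest of the 7 libraries, against 0.904 to 1.09 in the others. Single values ran from 0.332 to 3.07 of the gene's mean ratio. The ratios share Ttr, which chose the classes, as their denominator and cover genes that differed between the classes, so that no test was made.

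**Figure D3:**
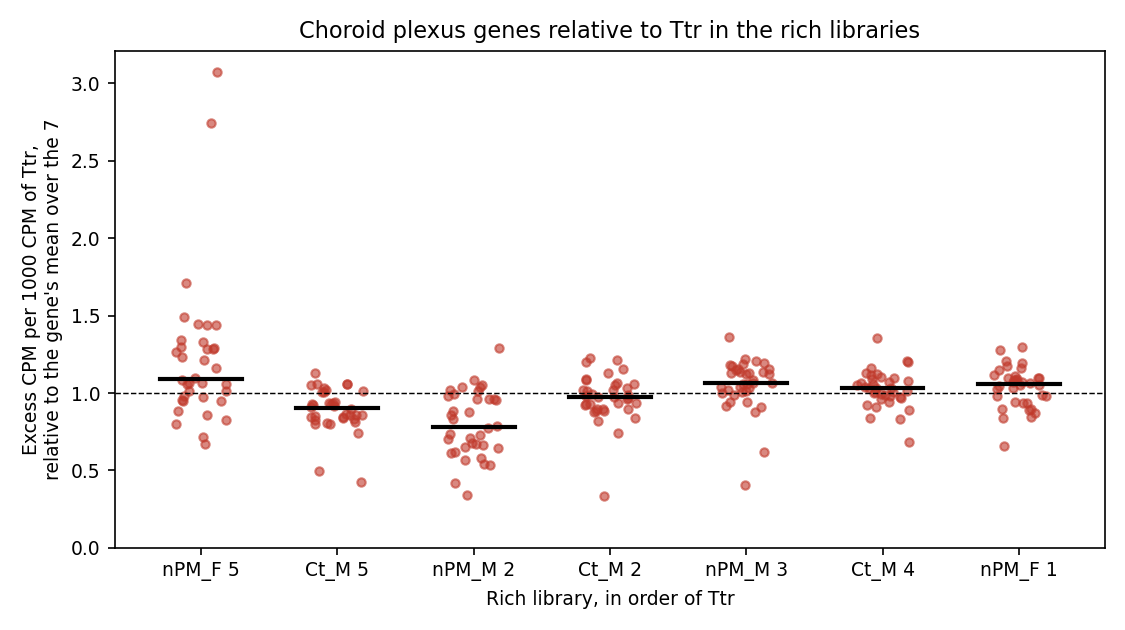
Excess CPM per 1000 CPM of Ttr for 36 choroid plexus genes (points) in each rich library, divided by the gene's mean over the 7 libraries. Bars are medians, which run from 0.778 (nPM_M 2) to 1.09 (nPM_F 5). The topmost points in nPM_F 5 are Wfikkn2 and Lepr.

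The 5 left-out libraries, which did not enter the ratios, were compared with the level given by the mean of the poor libraries plus the ratio times their Ttr. The median ratio of observed to predicted level over the 36 genes was 1.05 in nPM_M 4, 1.02 in Ct_F 2, 1.23 in Ct_F 5, 0.946 in Ct_F 4 and 0.931 in nPM_M 5. Of the 36 genes, 35 lay within 1.5-fold of that level in nPM_M 5, where the mean of the poor libraries alone was as close for 3 genes. In nPM_M 4 these numbers were 31 and 25, in Ct_F 2 30 and 18, in Ct_F 5 25 and 14 and in Ct_F 4 33 and 9. In nPM_M 4, Ct_F 2 and Ct_F 5 most of this closeness is therefore no sign of a rise with Ttr.

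Of the miRNA genes of the table, 4 were past the threshold and higher in the rich libraries, as were 3.28% of all genes tested. The number of miRNA genes tested is not given here, so that the number 4 is no result about miRNA genes. These 4 and Trpm3 are shown here after their values were seen. All 4 had fewer than 10 counts in every poor library, so that their values are a description. Each lies on the same strand within a gene that was itself higher. Mir204 lies in Trpm3, a cation channel gene of the choroid plexus and retinal pigment epithelium, and Mir764, Mir1912 and Gm22650 (the miR-3552 gene) lie in Htr2c. Their mature sequences in RefSeq (GRCm38.p6) are given because their seeds (bases 2 to 8, in capitals) all differ, so that the 4 genes share their position in these hosts and no seed.
mmu-miR-204-5p: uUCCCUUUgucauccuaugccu
mmu-miR-204-3p: gCUGGGAAggcaaagggacgu
mmu-miR-764-5p: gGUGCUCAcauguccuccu
mmu-miR-764-3p: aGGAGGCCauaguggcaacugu
mmu-miR-1912-3p: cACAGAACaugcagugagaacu
mmu-miR-3552: aGGCUGCAggcccacuucccu

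Mir204 (chromosome 19, 22750605 to 22750672) had 1 to 8 counts in the poor and 5 to 41 in the rich libraries, a log2 fold change of 2.97 ± 0.63 (SE). Trpm3 was at 76.8 to 156 CPM in the poor and at 204 to 609 CPM in the rich libraries (1.56 ± 0.25 SE, limma adjusted p = 0.0044). Of the 7 miRNA genes annotated within Htr2c, 5 passed the filter on low counts, and their log2 fold changes were 2.81 for Mir764, 3.76 for Mir1912, 2.79 for Gm22650, 2.48 for Mir1264 and 2.17 for Mir1298, the last pair not past the threshold. These libraries were not made for small RNA, so that the few reads may come from precursors or introns of the host transcripts as well as from the miRNA genes themselves, and the levels of mature miRNAs were not measured. With the log2 total count in the fit, Mir204 (limma adjusted p = 0.0682), Gm22650 (0.125) and Mir1912 (0.131) did not pass. With single libraries left out, Mir1912 lost its call in 5 of 15 fits and Gm22650 in 4 of 15.

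Promoters of the choroid plexus genes were searched for the letters TAATCC, the core bound by OTX2, on either strand within 250 bases before to 50 bases after the RefSeq starts. Of 47 promoters of 33 listed genes, 4 held it (8.51%), against 7.06% of all 32851 promoters of the same length. The match in Abca4 (chr3:122044210-122044509, GRCm38.p6, plus strand) stood on the reverse strand and that in Ace (chr11:105967698-105967997, plus strand) on the forward strand. Both promoters are printed because both genes are enriched with Ttr, with the matching letters in capitals.
Abca4: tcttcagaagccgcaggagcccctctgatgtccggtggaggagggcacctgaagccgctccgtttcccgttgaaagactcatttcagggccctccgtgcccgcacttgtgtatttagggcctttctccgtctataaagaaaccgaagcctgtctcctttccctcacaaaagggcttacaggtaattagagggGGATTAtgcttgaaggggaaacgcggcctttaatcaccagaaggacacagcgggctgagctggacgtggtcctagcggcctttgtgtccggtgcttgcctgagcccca
Ace: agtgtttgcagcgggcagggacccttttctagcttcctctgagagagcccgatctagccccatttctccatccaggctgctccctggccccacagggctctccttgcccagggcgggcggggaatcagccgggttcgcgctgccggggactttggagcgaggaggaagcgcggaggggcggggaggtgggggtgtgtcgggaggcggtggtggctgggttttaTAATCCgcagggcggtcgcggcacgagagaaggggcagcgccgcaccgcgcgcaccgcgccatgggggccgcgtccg
A forkhead core, TGTTTAC, was in 1 of the 47 promoters (Prlr; 2.13%), against 3.65% of all promoters. These shares are descriptions of the letters in these windows.

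Beyond the epithelium, genes of motile cilia were the next group. These genes mark the ependyma that lines the ventricles, and some are shared with the ciliated plexus epithelium. Of 15 members, 7 were higher in the rich libraries and the other 8 did not pass, where 3.28% of all genes tested were called higher. At an unadjusted p under 0.05 in limma 13 of the 15 were higher, beside 3501 of 19797 over all genes in both directions. The median log2 fold change was 1.17 and all 15 were positive. Foxj1, the master regulator of motile cilia, was at 2.04 to 9.82 CPM in the poor and at 9.13 to 19.6 CPM in the rich libraries, which overlap (log2 fold change 1.40 ± 0.28 SE, adjusted p = 0.0113). Dnah6, an axonemal dynein heavy chain, was at 5.66 to 24.99 CPM in the poor and at 21.3 to 60.9 CPM in the rich libraries (1.98 ± 0.35 SE, adjusted p = 0.00692), and its highest poor value was in Ct_F 3. Rsph1, of the radial spoke head, alone showed no overlap (1.48, adjusted p = 0.00747). Cfap126, Dynlrb2, Tmem212 and Ak7 lay between 1.36 and 1.61. With the log2 total count in the fit 2 of the 15 passed, and with single libraries left out 4 to 9.

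Markers of fibroblasts, border macrophages, vessels and blood gave no call in limma, where 3.83% of all genes tested were called. No list was made for the stroma of the plexus itself, and 0 calls in lists this short say little. Of 15 markers of meningeal fibroblasts 0 passed in limma, 0 in edgeR and 2 in DESeq2. In limma 5 had an unadjusted p under 0.05, beside 3501 of 19797 over all genes. All 15 were positive, with a median log2 fold change of 0.65. Their summed level ran from 38.1 to 223 CPM in the poor and from 85.7 to 239 CPM in the rich libraries, highest in Ct_M 1 and nPM_F 5. Ogn, a small proteoglycan gene, had the smallest p (1.71 ± 0.48 SE, adjusted p = 0.0638), followed by the collagen gene Col1a2 (1.20, adjusted p = 0.101). With sample quality weights, 5 of the 15 passed. The capillaries of the plexus are fenestrated, but Plvap, the diaphragm protein of fenestrae, differed by 0.01 ± 0.20 (SE) on the log2 scale and Esm1 by 0.18 ± 0.52 (SE). Of 10 markers of brain endothelium and 7 of border macrophages 0 passed in limma, edgeR or DESeq2 (2 and 0 at an unadjusted p under 0.05 in limma), with medians of 0.06 and 0.22, and Slc2a1 (0.42) and F13a1 (0.61) had the smallest p of these lists. Of 5 blood genes 3 could be tested and 0 passed, also unadjusted and in edgeR and DESeq2, and their sum was high in the poor libraries Ct_M 1 (41.1 CPM) and nPM_M 1 (30.3 CPM) and in the rich library nPM_M 2 (56.9 CPM).

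**Figure D4:**
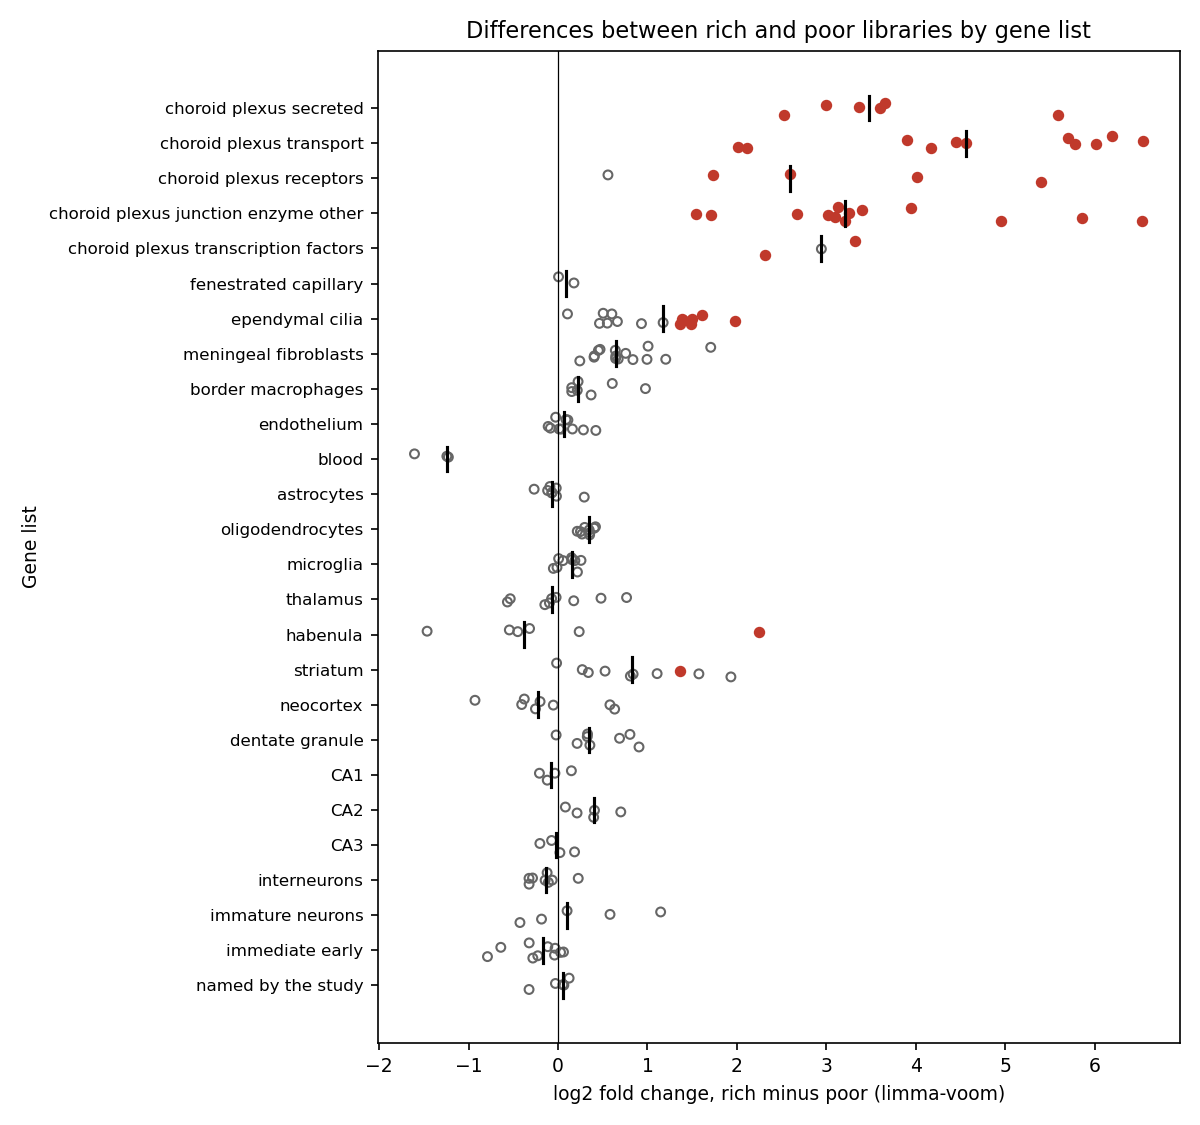
Log2 fold change (rich minus poor, limma-voom) of each tested gene (points) by gene list, with the list's median as a bar. Filled red points passed an adjusted p under 0.05, and open points did not. The 5 choroid plexus lists have medians from 2.59 to 4.56, ependymal cilia 1.17 and the hippocampal field lists between -0.08 and 0.40.

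Outside the lists, the 10 higher genes of smallest p were Olfr1507, Olfr570, Slco1c1, Ppp1r3b, Acaa2, Mdfic, Frem1, Acss3, Notch2 and Slc12a2, and none overlapped between the classes. Slco1c1, the thyroid hormone transporter of the plexus, capillaries and astrocytes, was at 35.8 to 52.2 CPM in the poor and at 60.8 to 135 CPM in the rich libraries (1.06 ± 0.13 SE, adjusted p = 0.00249). The olfactory receptor gene Olfr1507 had 0 to 6 counts in each poor library and 17 to 45 in each rich library. Its relative Olfr570 had 1 count in 1 of 8 poor libraries and none in the others, with 5 to 43 counts in each rich library. Both entered the test through the libraries where they are high, and their place among the smallest p is a description. Olfactory receptors form a large family of similar sequences, so that the assignment of these few reads is uncertain.

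The others stood at moderate levels. Ppp1r3b, which targets a phosphatase to glycogen, had a log2 fold change of 2.52 ± 0.32 (SE, adjusted p = 0.00296). Mdfic, an inhibitor of MyoD family transcription factors, and Frem1, an extracellular matrix protein gene, had 2.20 and 2.00, both with adjusted p = 0.00316. The enzymes Acss3, an acyl-CoA synthetase, and Acaa2, of mitochondrial fatty acid oxidation, had 1.68 and 1.23. The receptor Notch2 had 0.85. All 10 passed with each library left out in turn. They were picked by smallest p in these same libraries, so that neither this nor their lack of overlap adds support.

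The genes lower in the rich libraries differed by less than most of the higher ones. Pnma3, of the paraneoplastic antigen family, was at 19.5 to 23.6 CPM in the poor and at 15.05 to 17.2 CPM in the rich libraries, without overlap (log2 fold change -0.44 ± 0.06 SE, adjusted p = 0.00355). The receptor phosphatase gene Ptprt had -0.43 (adjusted p = 0.00493), the GABA-A receptor subunit gene Gabra3 -0.63 (adjusted p = 0.00861) and Chgb, chromogranin B of secretory granules, -0.44 (adjusted p = 0.00974). Fstl5, Ddx25, Map7d2, Gm9866 and Tspyl2 lay between -0.40 and -0.31, and the noncoding 2600014E21Rik at -1.36. Without the group covariate 7 of these 10 genes did not pass, among them Gabra3 (adjusted p = 0.193), Chgb (0.149), Ddx25 (0.173), Gm9866 (0.135) and Fstl5 (0.419), and 22 of the 109 lower genes were shared with that fit. With the log2 total count in the fit Chgb (0.0678), Gabra3, Map7d2 and Tspyl2 did not pass. Other than Pnma3, the 10 lower genes of smallest p overlapped between the classes. Snap25, a SNARE protein of synaptic vesicle release that was looked up after its values were seen, ran from 1277 through a median of 1500 to 1733 CPM in the poor and from 1000 through 1309 to 1418 CPM in the rich libraries (-0.36 ± 0.08 SE, adjusted p = 0.0154). Its lowest value was in nPM_F 1, and its adjusted p was 0.0504 without that library, 0.0916 with the log2 total count in the fit and 0.154 without the group covariate.

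Every library adds to the same total, so that RNA of added tissue lowers the share of all else. Ttr took 0.168% to 0.766% of the counts of the rich libraries, and the 649 higher genes took 1.43% to 2.68%, against 0.746% to 0.940% in the poor libraries. The 109 lower genes took 1.26% to 1.54% of the rich and 1.49% to 1.99% of the poor libraries. The part of this displacement in the lower genes was not tested.

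**Figure D5:**
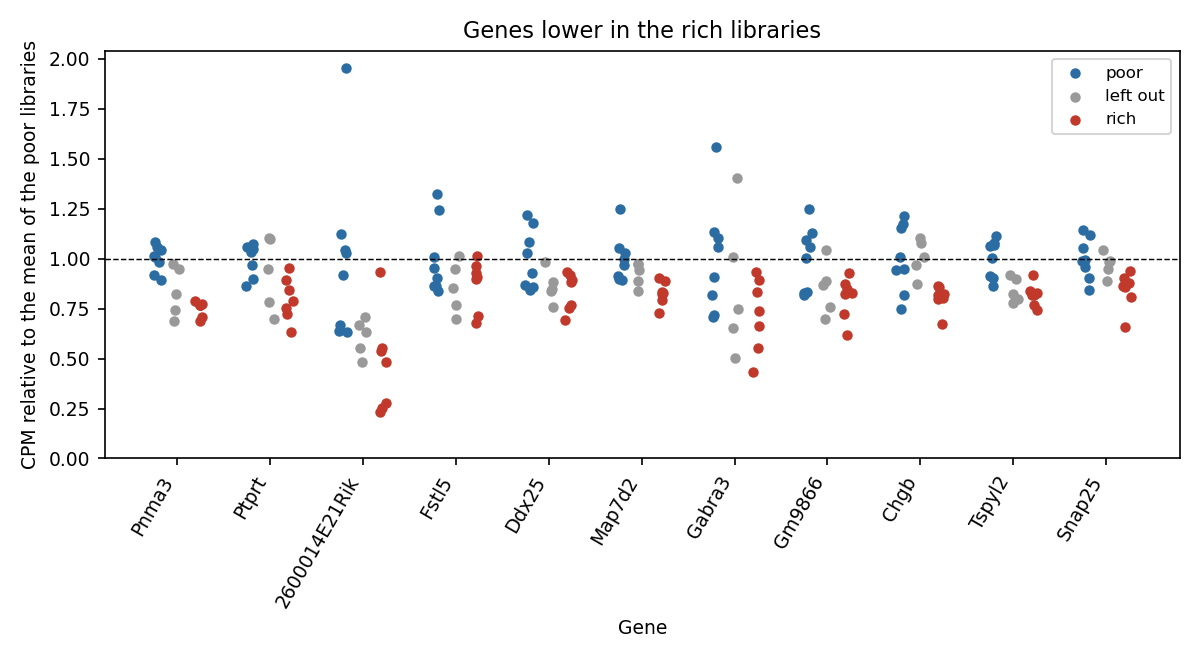
CPM of the 10 lower genes of smallest p and of Snap25, each divided by the gene's mean over the poor libraries, in the 8 poor, 5 left-out and 7 rich libraries (points). Apart from Pnma3, where the rich libraries lie at 15.05 to 17.2 CPM below the poor ones, the classes overlap.

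Genes that mark the cells of the hippocampus itself gave no call in limma, where 3.83% of all genes tested were called. At that share lists this short hold few calls or none, so that 0 calls say little about these cells. In the lists for dentate granule cells (8 genes), CA1 (4), CA2 (5), CA3 (4), interneurons (8), immature neurons (5) and immediate early genes (10) 0 members passed in limma or edgeR, and in DESeq2 1 immature neuron gene passed. At an unadjusted p under 0.05 in limma there were 4 dentate granule, 2 CA2, 1 interneuron and 2 immature neuron genes, and 0 in the other 3 lists. Over all genes 3501 of 19797 were at that level. The medians of these lists ran from -0.17 to 0.40 on the log2 scale. The members of smallest p were Lct and Tdo2 for the dentate gyrus (0.80 and 0.91), Pcp4 and Cacng5 for CA2 (0.40 and 0.70), Mpped1 and Man1a for CA1 (-0.21 and 0.15), Grik4 and Bok for CA3 (-0.20 and 0.18), Lhx6 and Pvalb for interneurons (-0.32 and -0.29), Sox11 and Igfbpl1 for immature neurons (-0.43 and 1.15) and Fos and Egr1 for the immediate early genes (-0.79 and -0.32). Astrocyte (8), microglia (9) and oligodendrocyte (9) markers had 0 members past the threshold in limma, edgeR and DESeq2, and medians of -0.07, 0.15 and 0.35. All 9 oligodendrocyte markers were positive and at an unadjusted p under 0.05 in limma, against 1 astrocyte and 0 microglia markers, with Mal (0.30) and Cldn11 (0.35) of smallest p, and their summed level was 2560 to 5620 CPM in the poor and 4129 to 6205 CPM in the rich libraries. For astrocytes these were Sox9 (0.29) and Gfap (-0.27), and for microglia Csf1r (0.16) and C1qc (0.22).

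Markers of regions next to the hippocampus were compared last. Of 10 striatal markers 9 were positive, 4 had an unadjusted p under 0.05 (3501 of 19797 over all genes) and 1 passed in limma, against 1 in edgeR, 3 in DESeq2 and 4 with the replicate block. The member that passed was Ppp1r1b, a dopamine-regulated phosphatase inhibitor, at 12.9 to 24.2 CPM in the poor and 31.3 to 116 CPM in the rich libraries (1.37 ± 0.28 SE, adjusted p = 0.0126). Without nPM_F 1 its log2 fold change was 1.05 (adjusted p = 0.00447), and with the log2 total count in the fit its adjusted p was 0.0724. The summed striatal markers reached 412 CPM in nPM_F 1 and 88.1 to 129 CPM in the other rich libraries, against 53.4 to 85.8 CPM in the poor ones. Every rich library thus lay above every poor one, but Ppp1r1b was the 1 marker of the 10 without overlap. The sums of Ct_M 5 (rich, 88.1 CPM) and Ct_F 1 (poor, 85.8 CPM) lay closer than the classes of Ppp1r1b. The separation of the sum therefore rested on Ppp1r1b, and the other markers summed without it overlap. Adora2a, looked up after its values were seen, an adenosine receptor of striatal neurons, was at 13.4 CPM in nPM_F 1 and at 0.367 to 2.15 CPM in the other libraries compared. Of 6 habenula markers tested 2 were positive, with a median log2 fold change of -0.38. At an unadjusted p under 0.05 in limma 1 was higher and 3 were lower. Chrnb4, a nicotinic subunit, was the 1 past the threshold (log2 fold change 2.25 ± 0.55 SE), with at most 6 counts in a poor and 30 in a rich library. It too entered the test through the rich libraries, and it kept its call in 6 of 15 fits with 1 library left out and lost it with the log2 total count in the fit (adjusted p = 0.176). Of 9 thalamic and 8 neocortical markers 0 passed in limma or edgeR (0 and 3 at an unadjusted p under 0.05 in limma, 0 and 1 in DESeq2), with Prkcd (0.77) and Ramp3 (0.48), and Rorb (-0.41) and Cplx3 (-0.93), of smallest p. Their summed levels overlapped between the classes. With nPM_F 1, Ct_F 1 and nPM_M 1 left out together, a choice made after the data were seen, 232 genes were higher and 40 lower.

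Finally, 6 of the genes that the study of gestational nPM exposure discussed by name were looked up in the same comparison. Hbq1a, a hemoglobin subunit gene, was below the filter on low counts, and Il12a, Bcan, Rhou, Cyp4f15 and Mir9-1 differed by -0.32 to 0.12 on the log2 scale with 0 past the threshold, also unadjusted at 0.05 and in edgeR and DESeq2. With 3.83% of all genes tested called in limma, 0 calls among so few genes say little. Bcan, the perineuronal net proteoglycan brevican, was at 76.3 to 169 CPM in the poor and at 99.0 to 166 CPM in the rich libraries (0.12 ± 0.14 SE, adjusted p = 0.69).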

How the data were processed

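The deposited table holds raw read counts of 48709 genes in 20 hippocampal libraries. The authors prepared ribosome-depleted total RNA libraries, aligned the reads with HISAT2 to mm10 and counted them per gene with featureCounts 1.5.0-p3 on Gencode annotation. The strand setting of the counting was not given in the sources used here. A second deposited table gave gene positions and the authors' mean RPKM over all libraries, a pooled value that was not tested.

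CPM was the count divided by the library total. Rich and poor libraries were compared over all genes with limma 3.58.1 (voom, eBayes, Benjamini-Hochberg adjustment) after TMM normalization in edgeR 4.0.16. Genes passed a filter of 10 counts in enough libraries and 15 in all, set over the 4 groups in the 20 libraries, which left 19797 genes with Ttr. The fit had the 4 group labels as covariate and 10 residual degrees of freedom. Log2 fold changes are on the voom scale, which adds 0.5 to each count. Alternatives included DESeq2 1.42.0 and edgeR's quasi-likelihood test. On simulated counts for this comparison over 19797 genes, 117 of 200 genes changed 1.5-fold, 177 of 200 changed 2-fold and 200 of 200 changed 4-fold were recovered. The changed genes were drawn only from genes with higher mean counts, and each gene was simulated independently. Recovery of genes with few counts was therefore not measured. Library properties were compared with two-sided exact permutation tests.

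Named genes were every tested choroid plexus list member, members of other lists past the threshold or else the 2 of smallest p, and, outside the lists, the 10 of smallest p in each direction. The members and lists were chosen with earlier results of these data known. No pair of libraries agreed within sampling noise, with at least 9.57 chi-square units per degree of freedom between any 2. RefSeq sequences were matched by symbol and are of GRCm38.p6. The limit of 3 counts covers counting error only. Values after ± are standard errors of the fit or SDs between libraries, as marked.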

Additional observations from a re-analysis of the deposited data

Results flagged for a closer look

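Of 56 tests of the highest or lowest library within the rich or the poor class, over summed marker levels and library properties, 7 found a library far from the rest. Chance alone gives about 1 in 20, or 2.8. In the rich class, the summed blood genes were at 56.9 CPM in nPM_M 2 and at 2.60 to 4.67 CPM in the other 6 libraries. The summed striatal markers were at 411.5 CPM in nPM_F 1, against 88.1 to 129 CPM. The border macrophage markers were at 29.5 CPM in nPM_F 5, against 10.6 to 17.4 CPM. The astrocyte markers were at 4601 CPM in Ct_M 4, the lowest, against 5303 to 5798 CPM.

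In the poor class, Ct_M 1 had the highest sum of choroid plexus junction and enzyme genes, at 110.1 CPM against 72.9 to 86.0 CPM in the other 7 libraries. The ependymal cilia genes were highest in Ct_F 3, at 134.6 CPM against 65.9 to 91.3 CPM. The CA1 markers were highest in nPM_F 3, at 472.7 CPM against 284 to 371 CPM.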

How the results depend on the processing

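The count of genes depended much on the processing, whereas no named gene past the threshold reversed its direction. Against 649 higher and 109 lower genes, DESeq2 gave 1004 and 517, rich against all other libraries 990 and 194, a slope on log2 Ttr over 20 libraries 1069 and 328, the log2 total count as covariate 211 and 17, and nPM_F 1, Ct_F 1 and nPM_M 1 left out together (chosen after the data were seen) 232 and 40. The lower count alone moved past 1.5-fold with RLE normalization (167), no group covariate (53), the sex label only (212), sample quality weights (286) and an unadjusted p under 0.005 (274). Within subsets, females gave 0 and 0, males 4 and 1, controls 1 and 0, and nPM libraries 1 and 0, while 1536 to 2759 genes had an unadjusted p under 0.05 in limma. With single libraries left out, the counts ranged from 376 (without nPM_F 1; 383 without Ct_M 3) to 790 higher and from 24 (without nPM_F 1) to 251 lower. The lower count was 38 without Ct_M 1, 39 without Ct_M 4, 47 without Ct_M 2, 58 without nPM_M 3, 245 without nPM_F 5 and 251 without nPM_M 1. The difference in total count ranged from 3387000 to 6000000 (exact permutation p from 0.0297 to 0.213). With the replicate number as a block, 789 genes were higher and 80 lower. The numbers mark no shared litter in the labels. Correlations between same-numbered libraries ran from -0.415 to 0.277, and 6 of 20 libraries correlated best with their own number. These values cannot tell whether same-numbered libraries were handled together, which was not tested. The causes of these movements were not tested.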

Other observations

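The genes called between the classes, choroid plexus genes among them, were also looked up in the 5 libraries left out. The share of the 649 higher genes above their median of the poor libraries was 55.8% in nPM_M 4, 58.6% in Ct_F 2, 80.6% in Ct_F 5, 81.0% in Ct_F 4 and 87.5% in nPM_M 5, in the order of their Ttr. Over all genes tested this share was between 47.7% and 55.0%. The share of the 109 lower genes above that median was 62.4%, 45.9%, 12.8%, 19.3% and 13.8% in the same libraries. The genes were called by their low or high values in the same poor libraries that set the median. That choice alone can move these shares, so that the share over all genes is no baseline for them. These are values of 5 libraries without a test, and how far the genes followed Ttr there was not tested.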
